A study of Mus musculus with 15 samples.

Results

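Respiratory complex I, the NADH:ubiquinone oxidoreductase of the mitochondrial inner membrane, was described through 35 listed nuclear genes that encode its subunits. They were taken by name as protein-coding subunit genes, with pseudogenes and assembly factors left out, and all 35 were found among the 54736 genes of the table. The tissue was punched out of the medial prefrontal cortex, and its RNA was sequenced in bulk. All mice were males of the C57BL/6 strain, 8 to 10 weeks old. One group was Df(h15q13)/+, heterozygous for a deletion that models the human 15q13 microdeletion, and the other was its wild-type littermates with both copies. The titles gave 7 WT and 8 KO libraries, KO standing for the heterozygous animals, whereas the series' design text gave these numbers the other way round. The titles were followed. The labels do not say which animal each library came from, and every p-value here rests on the spread between libraries, which may be partly technical. No other treatment or allele was given for either group.

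Complex I takes electrons from NADH, passes them through a flavin and a chain of iron-sulphur clusters to ubiquinone, and pumps protons across the inner membrane. Its matrix arm holds the NADH and ubiquinone sites, its membrane arm holds the pumps, and the core of the pumps is encoded by the mitochondrial genome. The other subunits are nuclear-encoded and imported, some as catalytic core subunits and the rest as accessory subunits needed for assembly and stability. Neurons depend on this enzyme for most of their ATP, and inherited defects in several of its subunits cause the encephalopathy known as Leigh syndrome.

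Members from several chromosomes can share transcription factors, and promoter entries were held in RefSeq (GRCm38.p6) for 32 of the 35 genes. Matches were searched on both strands from 250 bases before to 50 bases after the annotated start. The nuclear respiratory factor 1 motif, read as GCGCA, any base, then GCGC, was found for 7 of the 32 members, against 10.8% of the 11061 tested genes with an entry and 5.19% of all 27025 genes with one. The motif AAGATGGC of YY1 was found for 7 of 32, against 4.97% of tested and 3.19% of all genes. The ETS motif CCGGAAG, which GABPA binds, was found for 4 of 32, against 18.5% and 9.93%. The letters CCAAT were found for 10 of 32, against 42.5% and 41.1%. Sharing among members was thus partial, with no motif in a majority of them. These motifs were chosen after the members' values had been seen, and a match is a description of letters. Stretches of 250 bases before the start are shown for 4 members with low p-values described further on, all 4 carrying a motif. Among the 12 of lowest p, Ndufab1, Ndufa13, Ndufa7, Ndufc2 and Ndufb3 had no nuclear respiratory factor 1, ETS or YY1 match. Ndufb6 had an ETS match, Ndufs7 a YY1 match, and Ndufa2 no entry. Letters run 5′ to 3′ on the gene's strand, with nuclear respiratory factor 1 and ETS matches in capitals and CCAAT matches unmarked. Ndufa5 (chr6:24527691-24527940, minus strand) and Ndufb4 (chr16:37654369-37654618, minus strand) carry the nuclear respiratory factor 1 motif, Ndufb4 at 3 places, and the Ndufa5 stretch belongs to the upstream one of its annotated starts. Ndufb7 (chr8:83566508-83566757, plus strand) and Ndufs3 (chr2:90904722-90904971, minus strand) carry the ETS motif.
Ndufa5: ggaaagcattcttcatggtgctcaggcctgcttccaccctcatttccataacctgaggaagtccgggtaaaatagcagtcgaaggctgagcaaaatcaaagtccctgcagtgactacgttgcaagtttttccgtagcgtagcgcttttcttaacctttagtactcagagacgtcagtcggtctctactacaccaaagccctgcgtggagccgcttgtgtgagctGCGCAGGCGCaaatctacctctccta
Ndufb4: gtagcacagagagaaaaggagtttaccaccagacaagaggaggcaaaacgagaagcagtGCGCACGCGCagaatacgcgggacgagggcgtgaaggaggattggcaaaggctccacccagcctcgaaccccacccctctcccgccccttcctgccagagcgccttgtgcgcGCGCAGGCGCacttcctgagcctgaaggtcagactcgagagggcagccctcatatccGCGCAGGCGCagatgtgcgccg
Ndufb7: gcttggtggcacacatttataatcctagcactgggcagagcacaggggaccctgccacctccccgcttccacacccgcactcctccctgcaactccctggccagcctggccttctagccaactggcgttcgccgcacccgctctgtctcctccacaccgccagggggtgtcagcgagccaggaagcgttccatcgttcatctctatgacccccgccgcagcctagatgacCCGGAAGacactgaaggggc
Ndufs3: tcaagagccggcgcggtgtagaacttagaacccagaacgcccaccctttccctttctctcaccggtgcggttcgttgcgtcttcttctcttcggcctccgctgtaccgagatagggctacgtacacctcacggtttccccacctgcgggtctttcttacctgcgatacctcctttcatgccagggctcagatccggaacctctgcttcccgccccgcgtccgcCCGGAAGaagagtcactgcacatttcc

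Every listed subunit was well expressed in both groups. Levels are given in TPM, a relative transcript abundance scaled for transcript length, which can be compared between genes. The lowest value of any member in any library was 22.5 TPM and the highest was 287 TPM, so all 35 passed the requirement of a mean of at least 1 TPM. Ndufb9, Ndufb8, Ndufa3 and Ndufc2, all accessory subunits of the membrane arm, had the highest means over the 15 libraries, at 212, 200.1, 179 and 171 TPM. The ranges of these 4 genes over the libraries overlapped one another. The lowest means were those of Ndufb2 at 31.7, Ndufc1 at 41.8, Ndufs4 at 44.4 and Ndufb4 at 49.5 TPM, and the median member was at 96.6 TPM. Levels thus spread 6.67-fold although the subunits are built into the same enzyme. The catalytic core genes lay in the middle, from 68.9 TPM for Ndufs8 and 73.7 for Ndufs3 to 102 for Ndufs1, 102 for Ndufv1, 107 for Ndufs7 and 128 for Ndufv2. Ndufv1 encodes the subunit that binds NADH and flavin, Ndufs1 and Ndufv2 carry iron-sulphur clusters next to it, and Ndufs7 and Ndufs8 carry those nearest ubiquinone.

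**Figure D1:**
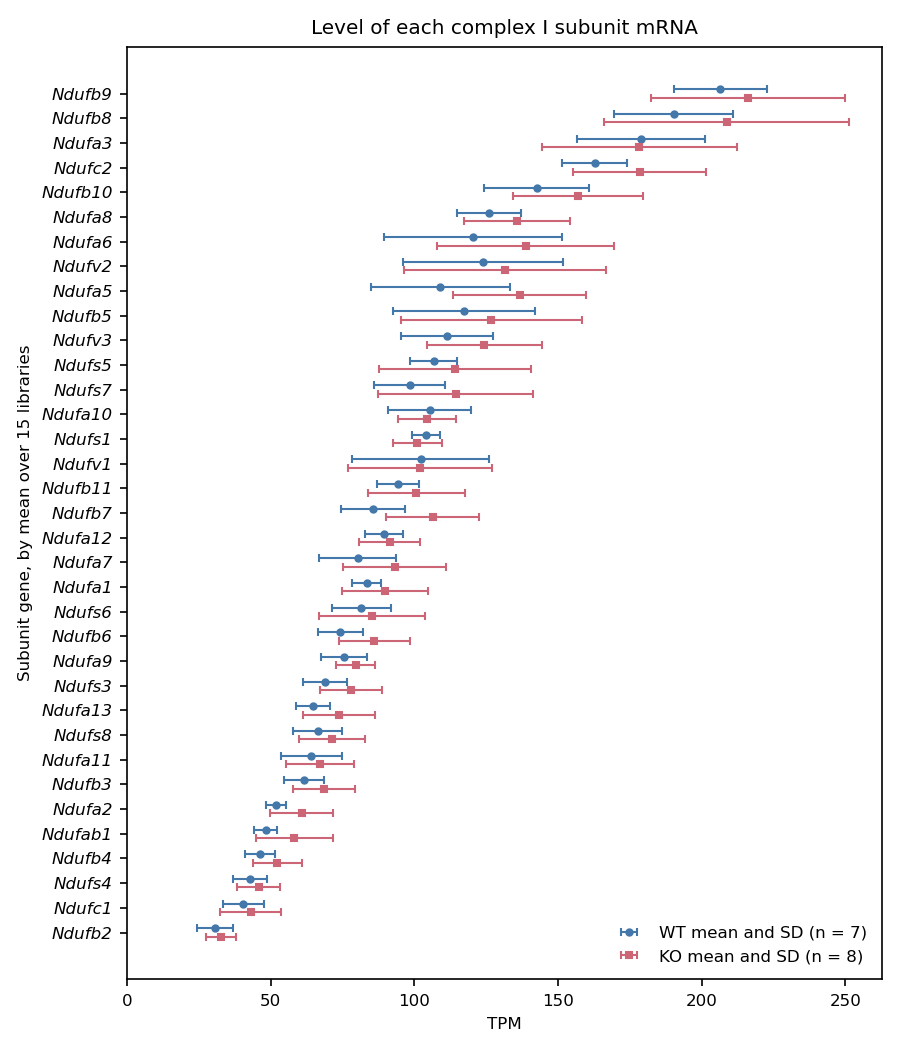
Mean TPM of the 35 complex I subunit genes, ordered by the mean over 15 libraries, with WT (circles, n = 7) and KO (squares, n = 8) means and SD bars. Ndufb9 leads at 212 TPM and Ndufb2 is last at 31.7 TPM, and the SD bars of both groups overlap for most genes.

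Reads of some members may be shared with copies or with overlapping genes. The table also lists Ndufb4c at a mean of 79.0 TPM, Ndufab1-ps at 38.4, Ndufa11b at 28.8 and Ndufs6b at 25.8 TPM, so the levels of Ndufb4, Ndufab1, Ndufa11 and Ndufs6 are uncertain. Among the 6 members of lowest p, exons of Ndufs3, Ndufb6, Ndufa2 and Ndufab1 overlap those of Kbtbd4, Smim27, Tmco6 and Gm44986 on the opposite strand by up to 85, 257, 66 and 269 bases. Overlaps of other members include those of Ndufb2 with Braf (51.7 TPM, up to 146 bases) and Ndufb5 with Mrpl47 (9.39 TPM, up to 530 bases), both on the opposite strand. On the same strand, Ndufb9 overlaps Gm49356 (2.38 TPM) by up to 193 bases and Ndufb8 overlaps Gm20538 (0 TPM) by up to 134. The strand setting is not given in the sources used here.

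The KO and WT cortex were then compared gene by gene, which asks whether the loss of 1 copy of the segment goes with other subunit mRNA levels. No complex I subunit passed the test. Of the 35 members 0 passed over all genes (limma, Benjamini-Hochberg adjusted p from 0.33 to 0.992), and over all 18656 tested genes 5 did, or 0.0268%. Those 5 were Klf13, Otud7a, Chrna7, Mtmr10 and Fan1 of the deleted segment, with log2 differences from -1.13 to -0.83, which checks the labels. The members' log2 differences, KO minus WT on log2(TPM + 1), were between -0.05 for Ndufs1 and 0.34 for Ndufa5, with SEs from 0.06 to 0.18. At an unadjusted limma p under 0.05, 4 members were higher and 0 lower, against 5.68% of all tested genes higher and 6.21% lower. The libraries of both groups overlapped for all 35 members, as for all but 0.134% of tested genes. In these bulk punches, fewer cells of a type and less RNA per cell cannot be told apart.

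Most members had slightly higher means in KO libraries. The mean was higher for 31 of 35 members, with a median log2 difference of 0.10, beside 54.7% of all tested genes and their median of 0.02. Here and below, higher and lower means in KO are counted on log2(TPM + 1), which can differ in sign from mean TPM. The median of the members was 0.05 with 26 of 35 higher without KO 1, and also 0.05 with 26 of 35 higher once trends on transcript length and GC content had been removed. The count of 4 members at an unadjusted p under 0.05 moved with single libraries: it was 2 without WT 3, WT 6, KO 1, KO 3 or KO 7, 1 without WT 5, and 7 without WT 4 or KO 6. It was 1 without KO 1 and KO 8 together. The share of all tested genes in these fits is not given here, so the counts cannot be set against it.

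**Figure D2:**
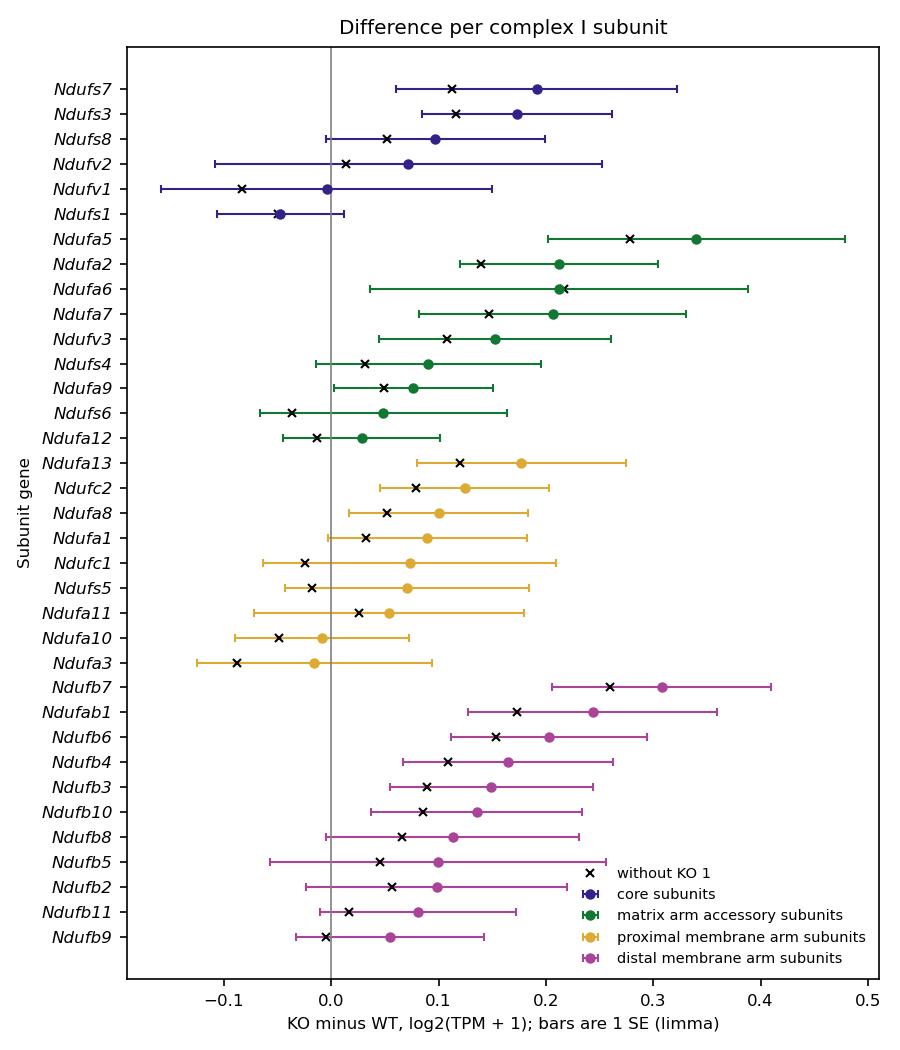
Log2 difference KO minus WT of each complex I subunit on log2(TPM + 1), grouped by role (colour), with bars of 1 SE from limma (7 WT and 8 KO libraries); crosses give the value without KO 1. Points lie between -0.05 and 0.34, and without KO 1 26 of 35 lie above 0.

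One KO library, KO 1, stood above the rest for most members. It also had the highest mean level of several lists described below: assembly factors, complexes II to V, tricarboxylic acid cycle enzymes and cytosolic ribosomal proteins. For the mitochondrially encoded subunits and for oligodendrocyte precursor and microglia markers it was the lowest library. KO 1 also stood apart over all tested genes. On their axis of largest variance, 19.3% of the total, it was at 51.8, and the other libraries ran from -30.0 (WT 5) to 20.6 (KO 3). KO 1 had the highest TPM of all 15 libraries for 27 of the 35 members and was above every WT library for 30. Summed over the members, it reached 4699 TPM, against 3006 to 3904 TPM in the other KO libraries and 2895 to 3757 TPM in WT. The lowest library was WT 5 for 14 members and KO 6 for 10. The mean log2(TPM + 1) of the 35 members averaged 6.45 ± 0.131 over the WT libraries (SD, n = 7) and 6.57 ± 0.191 over the KO libraries (SD, n = 8), and 6 of 8 KO libraries lay above the WT mean. KO 1 stood at 6.95, the next KO library, KO 3, at 6.67, and the highest WT library, WT 4, at 6.62. KO 4 at 6.44 and KO 6 at 6.31 were below the WT mean, so KO libraries lay on both sides of it.

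**Figure D3:**
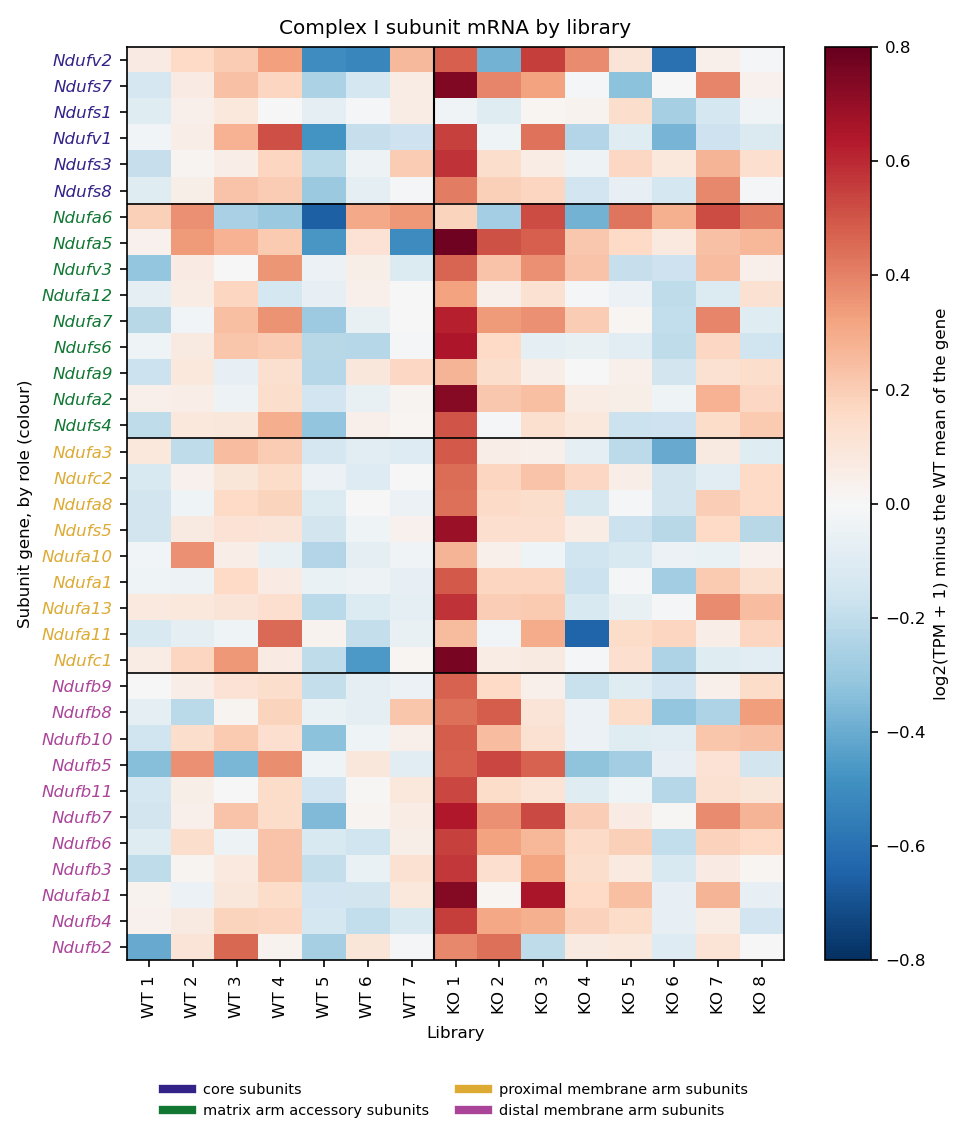
Each row is a complex I subunit gene, grouped by role, and each column a library; colour gives log2(TPM + 1) minus the WT mean of that gene. The KO 1 column is high in nearly every row, with the highest value of all libraries for 27 of 35 genes, and the WT 5 column is low, with the lowest value for 14.

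Core subunits of the catalytic path showed both signs. Of 6 genes 4 had higher means in KO, with a median log2 difference of 0.08 (0.03 without KO 1, and also 0.03 with length and GC trends removed). Ndufs3, a subunit of the ubiquinone module, was at 58.9, 69.4 and 78.8 TPM in the lowest, median and highest WT library. In KO libraries it was at 66.6, 75.5 and 102 TPM. KO 1 alone was above 82.7 TPM and the groups overlapped. The log2 difference of Ndufs3 was 0.17 ± 0.09 (SE; limma adjusted p = 0.444), and Ndufs7 had 0.19 ± 0.13 (adjusted p = 0.539). Ndufs1, the largest subunit of the matrix arm, was the least variable member in WT, at 104 ± 4.85 TPM (SD, n = 7), and was at 101 ± 8.53 TPM in KO (SD, n = 8). The other 3 core genes lay between the values of Ndufs1 and Ndufs3.

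Accessory subunits of the matrix arm had higher KO means in 9 of 9 cases, with a median of 0.15 (0.11 and 7 of 9 without KO 1, 0.08 and 7 of 9 with length and GC trends removed). Ndufa5 (chromosome 6, 24518666 to 24528013, mm10), a small subunit of the ubiquinone module, was at 74.8, 115 and 135 TPM in the lowest, median and highest WT library. In KO libraries it was at 113, 127 and 183 TPM. WT 5 at 76.8 TPM and WT 7 at 74.8 TPM stood apart from the other WT libraries, and all 8 KO libraries were above the WT mean of 109 TPM, yet only 3 were above the highest WT library. The log2 difference of Ndufa5, 0.34 ± 0.14 (SE), was the highest of the members (limma adjusted p = 0.381). Ndufa2, an accessory subunit of the NADH module (chromosome 18, 36742332 to 36744557), was at 46.3, 52.5 and 56.9 TPM in the lowest, median and highest WT library. In KO libraries it was at 50.5, 59.0 and 86.0 TPM. The high KO end was KO 1 alone, since the next library was at 62.8 TPM, while 5 of 8 KO libraries were above the highest WT library. Its log2 difference was 0.21 ± 0.09 (SE; adjusted p = 0.393), and 0.14 without KO 1. Ndufa7 had 0.21 ± 0.12 (adjusted p = 0.493). Ndufs4, whose loss in mice gives a model of Leigh syndrome, was at 42.8 ± 6.00 TPM in WT (SD, n = 7) and 45.7 ± 7.40 TPM in KO (SD, n = 8).

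Subunits of the proximal membrane arm, which borders the matrix arm, had higher KO means in 7 of 9 cases, with a median of 0.07 (0.03 and 5 of 9 without KO 1). With length and GC trends removed their median was 0.0037, and 5 of 9 were higher. Ndufa13, also known as GRIM-19, had a log2 difference of 0.18 ± 0.10 (SE; limma adjusted p = 0.464), with 5 of 8 KO libraries above the highest WT library. Ndufc2 had 0.12 ± 0.08 (adjusted p = 0.513). Ndufa3, among the most abundant members, was at 154, 167 and 211 TPM in the lowest, median and highest WT library. In KO libraries Ndufa3 was at 134, 176 and 250.2 TPM. KO 1 was again the highest and KO 6 the lowest library, and the log2 difference of -0.02 ± 0.11 (SE; adjusted p = 0.961) was near 0 and changed sign with single libraries. The X-linked Ndufa1 had a WT mean of 83.4 ± 4.99 TPM (SD, n = 7), and its KO mean was 89.8 ± 15.1 TPM (SD, n = 8).

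Subunits of the distal membrane arm had higher KO means in 11 of 11 cases, with a median of 0.14 (0.09 and 10 of 11 without KO 1, 0.08 and 10 of 11 with length and GC trends removed). Ndufb7 (chromosome 8, 83566671 to 83571626, mm10), which faces the intermembrane space, had the lowest p of all members. It was at 66.1, 87.3 and 99.6 TPM in the lowest, median and highest WT library, and at 85.5, 106 and 133 TPM in KO libraries. Of 8 KO libraries 5 were above every WT library, while KO 4, KO 5 and KO 6 lay within the WT range. The log2 difference of Ndufb7 was 0.31 ± 0.10 (SE; limma, Benjamini-Hochberg adjusted p = 0.33), and 0.26 without KO 1. Ndufb6, an accessory subunit of the distal part, was at 66.1, 71.9 and 86.7 TPM in the lowest, median and highest WT library, and at 64.4, 84.2 and 109 TPM in KO libraries. KO 6 was the lowest library of all and 3 of 8 KO libraries were above the highest WT library. Its log2 difference was 0.20 ± 0.09 (SE; adjusted p = 0.404).

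Ndufab1, the mitochondrial acyl carrier protein, which also serves fatty acid synthesis and iron-sulphur cluster assembly, was at 43.0, 49.0 and 53.3 TPM in the lowest, median and highest WT library. In KO libraries it was at 45.8, 55.4 and 80.6 TPM. KO 1 and KO 3, the latter at 75.9 TPM, stood above the other KO libraries. The log2 difference of Ndufab1 was 0.24 ± 0.12 (SE; limma adjusted p = 0.425). Ndufb4 and Ndufb3 had 0.16 ± 0.10 and 0.15 ± 0.09 (adjusted p = 0.489 and 0.514). The most abundant member, Ndufb9, was at 181, 206 and 227 TPM in the lowest, median and highest WT library, and at 182, 212 and 287 TPM in KO libraries. KO 1 was the highest library and 3 of 8 KO libraries were above the highest WT library, and the log2 difference of 0.05 ± 0.09 (adjusted p = 0.793) turned to -0.005 without KO 1. The lowest, median and highest WT values of Ndufb8 were 163, 183 and 221 TPM, beside 152, 206 and 265 TPM for KO. Its KO values held both the lowest and the highest library, and the log2 difference was 0.11 ± 0.12 (adjusted p = 0.686). The 20 members outside the 12 of lowest p and the 3 most abundant ranged from -0.05 to 0.21, with adjusted p-values from 0.551 to 0.992.

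**Figure D4:**
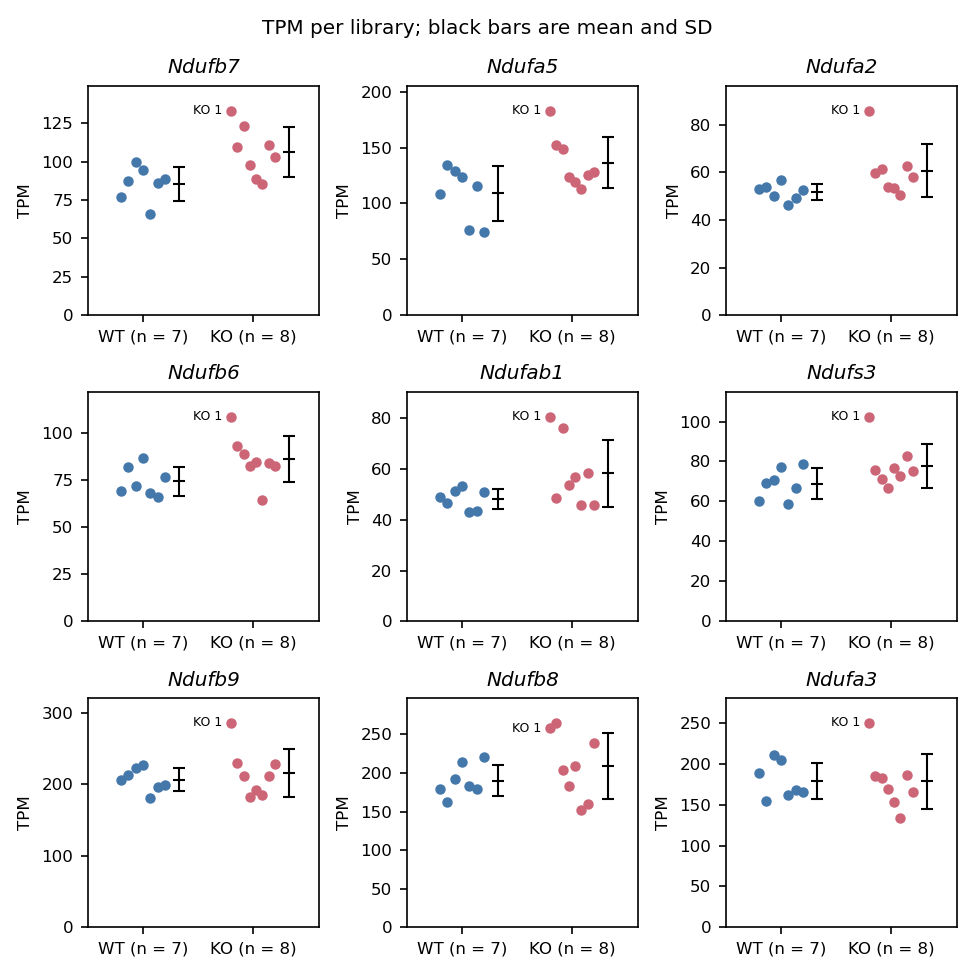
TPM per library for the 6 members with the lowest p (Ndufb7, Ndufa5, Ndufa2, Ndufb6, Ndufab1, Ndufs3) and the 3 most abundant (Ndufb9, Ndufb8, Ndufa3); points are libraries (WT n = 7, KO n = 8), black bars the mean and SD, and each axis starts at 0. Ndufb7 reaches 133 TPM in KO 1 against 99.6 TPM in the highest WT library, and the groups overlap in every panel.

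Members kept different distances from their common level. The log2 difference between a member and the mean of the other 34 varied least over the 15 libraries for Ndufb11, with an SD of 0.0645, followed by Ndufa8 at 0.0713 and Ndufb9 at 0.0788. It varied most for Ndufa6, a subunit of the matrix arm, at 0.394, followed by Ndufv2 at 0.302 and Ndufb5 at 0.263. Ndufa6 was at 73.9 TPM in WT 5 and reached 151 TPM in another WT library, so its spread lay within the WT group as well. The coefficient of variation was higher in KO than in WT for 30 of 35 members, with medians of 16.7% in KO and 12.4% in WT libraries. Without KO 1, an alternative chosen after seeing the data, the count was 20 of 35 and the KO median 11.4%.

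The mitochondrially encoded partners did not share the pattern of KO 1. Of the 7 mitochondrial complex I genes 2 had higher and 5 lower means in KO, 0 passed the test, and the median log2 difference was -0.05 (-0.03 without KO 1). With length and GC trends removed it was -0.13, and 0 of 7 were higher. mt-Nd3 had 0.05 ± 0.07 and mt-Nd4l -0.27 ± 0.13 (SE; limma adjusted p = 0.76 and 0.432), mt-Nd4l overlapping mt-Nd4 in the mitochondrial genome. Their mean log2(TPM + 1) was 12.8 in KO 1, the lowest library, against 13.1 to 13.4 in WT libraries. Genes with an mt- symbol held 18.8% of the TPM of KO 1 and 19.8% to 23.9% in the other KO libraries, against 21.1% to 26.0% in WT. TPM values sum to a fixed total, so a lower share of one class raises the others. Without the mt- genes, and with the rest rescaled to a common total, the median over the nuclear members was 0.08.

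Assembly factors, which build the enzyme but do not stay in it, gave values like those of the subunits. Of the 20 tested, 17 had higher means in KO and 3 lower on log2(TPM + 1), and 0 passed over all genes. Ndufaf1 counts as lower, although its mean was 17.7 TPM in WT and 17.8 TPM in KO. At an unadjusted limma p under 0.05, 2 were higher, beside 5.68% of all tested genes. The median of the list was 0.08 (0.06 without KO 1). The highest value was that of Lyrm2 at 0.39 ± 0.16 and the lowest that of Foxred1 at -0.06 ± 0.06 (SE; limma adjusted p = 0.379 and 0.66). Ndufaf2, an assembly factor, was at 22.7 ± 1.19 TPM in WT (SD, n = 7) and 26.2 ± 2.86 TPM in KO (SD, n = 8), with adjusted p = 0.339, the lowest of the list, and was named after its values were seen.

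The other respiratory complexes stood at similar values, and 0 of their genes passed. Medians were 0.06 for 4 genes of complex II, 0.10 for 9 of complex III, 0.06 for 11 of complex IV and 0.11 for 16 of complex V. Without KO 1 these were 0.03, 0.06, 0.03 and 0.05, and with length and GC trends removed 0.03, 0.05, -0.02 and 0.04. The highest values were those of Sdhd at 0.12, Uqcrq at 0.27, Cox6c at 0.26 and Atp5j2 at 0.23, and the lowest those of Sdhc at 0.03, Uqcr11 at -0.03, Ndufa4 at -0.05 and Atp5g1 at -0.10 (limma adjusted p from 0.39 to 0.913). The median of complex IV was also below 0, at -0.001, without KO 1 and KO 8. The 80 cytosolic ribosomal protein genes, short abundant transcripts of another compartment, had higher KO means in 72 of 80 cases (median 0.11, or 0.06 without KO 1 and 0.04 with length and GC trends removed), from Rpl29 at -0.28 to Rpl7a at 0.49 (adjusted p = 0.564 and 0.39), and 0 passed. KO 1 was the highest library for this list as well, 0.478 above the WT mean, against 0.50 for complex I. The median annotated transcript length was 782 bases for the 35 members and 758 bases for the ribosomal genes, against 2128 bases for all tested genes. Whether transcript length takes part in the result was not tested beyond the fit without its trend.

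**Figure D5:**
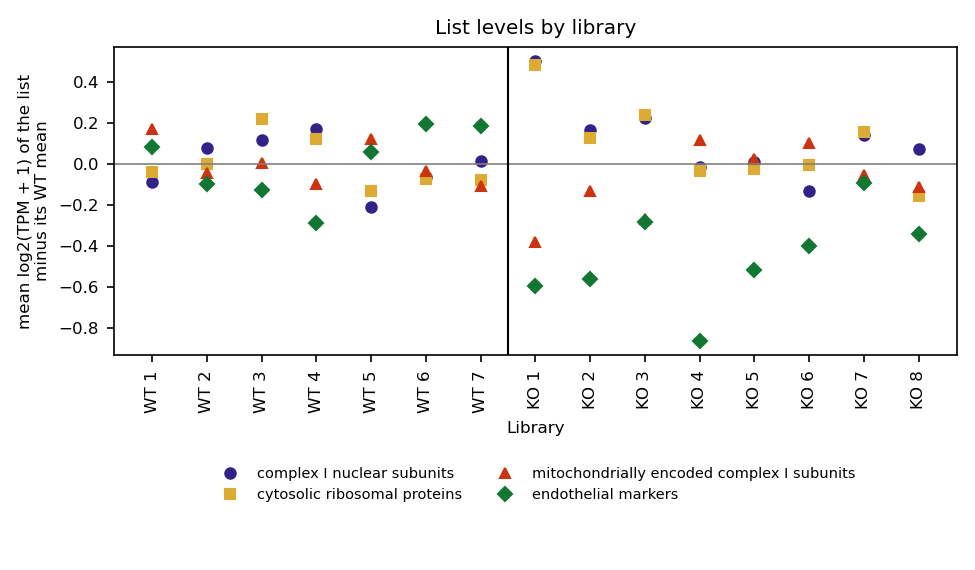
Mean log2(TPM + 1) of each gene list per library, minus the mean of the 7 WT libraries, for nuclear complex I subunits (circles), cytosolic ribosomal protein genes (squares), mitochondrially encoded complex I subunits (triangles) and endothelial markers (diamonds). In KO 1 the nuclear subunits are 0.50 and the ribosomal genes 0.478 above WT, while the mitochondrial ones are below it by -0.38.

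Cell type markers also differed between the libraries. Excitatory neuron markers, which should dominate a cortical punch, summed to between 4226 and 5172 TPM in WT and between 4433 and 5243 TPM in KO libraries. KO means were higher for 7 of these 10 markers, with a median log2 difference of 0.13. At an unadjusted limma p under 0.05, 3 were higher and 2 lower, beside 5.68% and 6.21% of all tested genes. Striatal neuron markers were higher for 3 of the 5 tested, with a median of 0.12, which turned to -0.0095 without KO 1 and KO 8. Endothelial markers were lower in 10 of 10 cases, with sums of 201 to 302 TPM in WT and 138 to 249.6 TPM in KO, and astrocyte markers in 13 of 15, with sums of 2494 to 3244 TPM and 2127 to 2764 TPM. Oligodendrocyte markers summed to 409 to 558 TPM in WT, and to 923 TPM in KO 1 and 1388 TPM in KO 8 against at most 415 TPM in the other 6 KO libraries. No gene of these excitatory, striatal, endothelial, astrocyte and oligodendrocyte lists was at 0 in any library. At an unadjusted limma p under 0.05, 9 endothelial and 9 astrocyte markers were lower, beside 6.21% of all tested genes, and 0 passed over all genes. Means in KO were also lower for 8 of 8 mural cell, 6 of 6 oligodendrocyte precursor, 6 of 6 meningeal, 5 of 5 blood, 8 of 10 microglia and 8 of 10 inhibitory neuron markers. KO 8, unlike KO 1, was not high in complex I, at 6.52. The part of these cell types in the complex I values was not tested.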

How the data were processed

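RNA from cortical micropunches was sequenced on the BGISEQ-500 platform, per the labels. The authors deposited TPM values, which are scaled by transcript length and library total and sum to between 999789 and 999899 per library. Trimmomatic, HISAT2, StringTie and the mm10 build are named in the submitters' processing notes; their versions, strand setting and gene models were not given in the sources used here. Because TPM keeps no read depth, depth is unknown, no count model was used, and precision comes from the spread between libraries.

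GENCODE M21 symbols matched 54723 of 54838 Ensembl IDs; rows sharing a symbol were summed. A gene was tested if its mean reached 1 TPM, on log2(TPM + 1), a scale that understates changes of low genes, with limma 3.58.1 in R 4.3.3 (intensity trend, two-sided, Benjamini-Hochberg over 18656 genes, threshold 0.05). The test was tested on simulated data. Alternatives were a pseudocount of 0.1, no filter, a mean of 5 TPM, median-of-ratios, quantile and mitochondria-free scaling, removal of length and GC trends (lowess, median over GENCODE basic transcripts), array weights, the replicate number as a block, and libraries left out.

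Members and lists were chosen with earlier results of these data known. Differences are given for the 12 members of lowest p and the 3 most abundant, and in other lists for the highest and lowest gene. The assembly factor list held 21 genes, of which 20 were matched and tested.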

Additional observations from a re-analysis of the deposited data

Results flagged for a closer look

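For 7 values of single subunits, the highest or lowest library of a group of 7 or 8 lay far from the nearest other library, with a gap on log2(TPM + 1) that took up more of the group's range than Dixon's 95% critical value (0.568 for 7 and 0.526 for 8 libraries). In 5 of them the library was KO 1 at the high end. The share of the range was 0.564 for Ndufs6, at 127 TPM against 91.1 in the next library, and 0.592 for Ndufa2, at 86.0 against 62.8 TPM. It was 0.543 for Ndufa10, at 126 against 107 TPM, 0.621 for Ndufc1, at 68.2 against 43.8 TPM, and 0.578 for Ndufs5, at 172 against 119 TPM. The other 2 concerned Ndufa11, where WT 4 was high at 87.2 against 64.7 TPM (share 0.661) and KO 4 was low at 40.4 against 62.6 TPM (share 0.664). The 35 members made 70 such groups, of which chance alone would flag about 3.5, and values of the members within a library are not independent. None was flagged among 6 further groups, the mean levels of the nuclear subunits, the assembly factors and the mitochondrially encoded subunits.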

How the results depend on the processing

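The count of 0 complex I subunits past the threshold held in all 25 alternatives, and their lowest adjusted p in any of them was 0.198 (limma). The members' median stayed positive in each, from 0.0483 with length and GC trends removed to 0.142 without KO 6. The count at an unadjusted p under 0.05 ranged from 1 to 7 over the fits without 1 library, and was 1 without KO 1 and KO 8. No share of all tested genes in the same fits stands beside these counts. Ndufb9 turned to -0.0189 with length and GC trends removed, to -0.0306 without KO 1 and KO 8, and ranged from -0.00495 to 0.0879 without 1 library. Ndufa3 ranged from -0.0882 to 0.0396 without 1 library. The cause of these shifts was not tested. No clear pairing by replicate number was seen: deviations of same-numbered WT and KO libraries correlated at -0.0425 to 0.122. Such values cannot exclude a weak pairing, or one that the numbers do not follow. With the replicate number as a block, 8 genes passed over all genes in place of 5, 0 of them complex I subunits, and Fan1 was lost (adjusted p = 0.0946). Depth is unknown, so what it limits could not be stated.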

Other observations

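Genes around complex I gave log2 differences of both signs. Of 16 enzymes of the tricarboxylic acid cycle and pyruvate dehydrogenase, which make most mitochondrial NADH, 13 had higher means in KO and 0 passed, with a median log2 difference of 0.05 (0.01 without KO 1). The highest was Dlst, a subunit gene of the oxoglutarate dehydrogenase complex, at 0.22 ± 0.10, and the lowest was Ogdh, another subunit gene of that complex, at -0.09 ± 0.07 (SE; limma adjusted p = 0.432 and 0.588). Of 13 regulators of mitochondrial biogenesis 9 had lower means and 4 higher, with a median of -0.07 (-0.06 without KO 1), and 0 passed. Among these, the coactivator gene Ppargc1b was at 7.21 ± 1.30 TPM in WT (SD, n = 7) and 5.83 ± 1.45 TPM in KO (SD, n = 8), a log2 difference of -0.28 ± 0.14 (SE; adjusted p = 0.439). Tfb1m, a mitochondrial ribosomal RNA methyltransferase gene, was at 0.18 ± 0.09 (adjusted p = 0.431). Ppargc1a, another coactivator gene, was at -0.27 ± 0.12 (SE; limma adjusted p = 0.408) and was named after its values were seen. It was the only regulator at an unadjusted limma p under 0.05, beside 6.21% of all tested genes lower and 5.68% higher.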
